A study of Mus musculus with 14 samples.

Results

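Cathepsins are the proteases of the lysosome, and this account covers 10 of their genes in the osteocyte-like line Ocy454: Ctsa, Ctsb, Ctsc, Ctsd, Ctsf, Ctsh, Ctsk, Ctsl, Ctso and Ctsz. They were taken by name, with earlier results of these data known, and make up 10 of the 39179 genes in the differentiation table. All 10 are also among the 35886 genes that the sorted libraries gave after transcripts were summed. Ocy454 is a mouse line, conditionally immortalized with a temperature-sensitive large T antigen. All 14 libraries came from these cells, plated on tissue culture plastic, grown at the permissive temperature until confluent and then moved to a higher temperature to differentiate. In the differentiation experiment, cells were collected on day 1, 7, 10 or 14 with 2 biologic replicates each. In the sorting experiment, cells differentiated for 17 days were labelled for CD61, the integrin β3 chain encoded by Itgb3. The labels and the methods of the paper give this day, while its results text gives an earlier day. Live cells in the top 10% (CD61high) and the bottom 10% (CD61low) of the signal were collected from 3 independent groups of cells. The labels name no drug and no gene knockdown for any group. A single cell line limits what the groups can stand for, and the sorted groups leave out the middle of the CD61 signal.

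Cathepsins are made as inactive proenzymes, tagged with mannose 6-phosphate in the Golgi, carried to lysosomes by mannose 6-phosphate receptors and activated by the acid that the vacuolar ATPase pumps in. Most are cysteine proteases (Ctsb, Ctsc, Ctsf, Ctsh, Ctsk, Ctsl, Ctso and Ctsz), Ctsd is an aspartic protease and Ctsa is a serine carboxypeptidase. Cathepsin K digests type I collagen and is best known from osteoclasts. Osteocytes also use it, together with acid secretion and matrix metalloproteinases such as Mmp13, to remove and replace the matrix around their lacunae, a process called perilacunar remodelling.

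Across both experiments, the expression of Ctsa rose more than that of the other cathepsins, by 3.15 times from day 1 to day 14 and by 2.83 times from CD61low to CD61high cells. Ctsz was also higher in both comparisons, though in the sort not when libraries were scaled by their size alone. Ctsk was lower on day 14 than on day 1 and did not pass the test between the sorted groups. Ctsl went in opposite directions, higher on day 14 and lower in CD61high cells, the latter by a call at the edge of the threshold. Ctsf and Ctsh were at or near 0 reads throughout.

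Depth and sample identity were checked first. Reads counted on genes numbered 27518605 to 34311238 per differentiation library, and estimated counts totalled 18815602 to 19220064 per sorted library. Itgb3, which encodes the sorted marker, lay at 5.31 to 6.10 TMM-normalized CPM in the 3 CD61low libraries and at 100.1 to 130.1 in the 3 CD61high libraries. The 6 osteocyte marker genes summed to 30.1 CPM in both day 1 libraries and to 186 CPM in both day 14 libraries, and to 40.3 to 43.8 in CD61low against 93.9 to 128 in CD61high. Fgf23, 1 of these markers, was at 0 in every differentiation library. Because osteoclasts and macrophages are rich in cathepsins, their markers were read in the same libraries. Of 10 osteoclast markers, 4 to 7 were at 0 in a given group, among them Calcr and Dcstamp in every group. Their sum, 44.1 to 74.7 CPM over all libraries, was nearly all Nfatc1, a factor also made outside osteoclasts. Of 15 macrophage markers, 5 to 7 were at 0 in a given group, among them Adgre1, C1qa, C1qb and C1qc in every group. The summed macrophage markers ran from 14.8 to 15.3 CPM on day 1, 7.14 to 7.92 on day 7, 13.5 to 15.1 on day 10, 8.69 to 9.56 on day 14, 18.5 to 23.6 in CD61low and 13.6 to 14.4 in CD61high, with Cd68 at 14.2 and 8.07 in the sorted groups. The 7 osteoblast markers, mostly type I collagen, summed to 62559 to 62771 CPM on day 1 and 56118 to 65024 on day 14, and to 27605 to 33763 in CD61low against 76888 to 83046 in CD61high. Single markers moved apart from these sums. On day 14 Ibsp (4.27 as Log2FC, the difference in log2 level from day 1), Bglap (3.80), Sp7 (2.34), Alpl (2.02) and Runx2 (0.70) were higher and Col1a1 (-0.47) was lower, and the osteocyte marker Pdpn was lower on day 14 (-0.53) and in CD61high cells (-0.48). The part of these transcripts in the cathepsin values was not tested. In bulk RNA, fewer cells of a type and less RNA per cell cannot be told apart.

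Promoters of 4 cathepsins are shown here because the master regulators of lysosomal genes, the MiT/TFE factors Tfeb, Tfe3 and Mitf, bind an E-box with the core CACGTG. The windows run from 250 bases before to 50 bases after the first base of the transcript with the most estimated counts, 5′ to 3′ on the strand of the gene, in GRCm39. In Ctsb (chr14:63359627-63359926, plus strand) and Ctsd (chr7:141941726-141942025, minus strand) capitals mark the E-box and its matching flanks, and in Ctsa (chr2:164674543-164674842, plus strand) and Ctsk (chr3:95405994-95406293, plus strand) the single capital marks the first base of the transcript.

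Ctsb: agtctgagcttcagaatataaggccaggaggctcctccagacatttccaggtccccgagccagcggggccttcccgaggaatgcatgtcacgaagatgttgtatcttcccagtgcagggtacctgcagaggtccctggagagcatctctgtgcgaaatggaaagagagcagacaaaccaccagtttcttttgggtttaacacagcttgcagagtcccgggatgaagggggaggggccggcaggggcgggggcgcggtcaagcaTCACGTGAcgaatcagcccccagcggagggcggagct

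Ctsd: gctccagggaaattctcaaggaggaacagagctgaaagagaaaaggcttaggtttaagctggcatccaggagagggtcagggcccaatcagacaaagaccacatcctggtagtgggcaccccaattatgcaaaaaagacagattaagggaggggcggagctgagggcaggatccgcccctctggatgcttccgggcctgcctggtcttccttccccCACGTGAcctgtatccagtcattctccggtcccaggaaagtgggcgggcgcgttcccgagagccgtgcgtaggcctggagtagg

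Ctsa: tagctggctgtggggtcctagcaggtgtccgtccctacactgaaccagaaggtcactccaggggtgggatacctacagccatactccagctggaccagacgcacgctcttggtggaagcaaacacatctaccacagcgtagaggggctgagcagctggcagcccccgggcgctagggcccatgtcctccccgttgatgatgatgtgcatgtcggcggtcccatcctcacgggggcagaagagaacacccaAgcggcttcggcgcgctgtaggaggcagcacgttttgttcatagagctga

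Ctsk: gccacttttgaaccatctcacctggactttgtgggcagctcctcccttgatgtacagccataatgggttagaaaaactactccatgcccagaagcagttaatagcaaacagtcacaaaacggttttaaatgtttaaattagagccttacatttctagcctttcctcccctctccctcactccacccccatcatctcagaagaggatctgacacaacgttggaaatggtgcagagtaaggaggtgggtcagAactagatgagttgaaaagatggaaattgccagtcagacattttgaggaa

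Both strands of the windows of the 8 expressed cathepsins were searched for CACGTG and for TCACGTGA, which contains it. CACGTG, which reads the same on both strands, occurred in Ctsb and Ctsd alone, 2 of 8 windows, beside 9.9% of the 12077 promoters of all genes tested in the sort. The Ctsb window held the extended TCACGTGA, found in 1.69% of those promoters, at bases 13 to 20 downstream of the start, counting the first transcribed base as 0. In Ctsd the core with 1 flanking base lay at -34 to -28. Ctsa had neither motif in its window. Only exact matches in a single window per gene were sought, and control of the cathepsins by these factors was not tested.

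The first question was how the cathepsins changed as Ocy454 cells differentiated. Log2FC values are differences of log2(CPM + 1), where CPM is the count of a gene per 1000000 reads counted on genes, and a gene is called higher or lower at an adjusted p below 0.01 from limma. The filter, a CPM above 1 in at least 1 library, was passed by 8 of the 10 cathepsins. On day 7, 3 of these 8 were higher than on day 1 (Ctsa, Ctsl, Ctsz) and 5 were lower (Ctsb, Ctsc, Ctsd, Ctsk, Ctso), in a comparison that called 56.5% of all 12725 genes tested (24.5% higher, 32.0% lower). On day 10, 3 were higher (Ctsa, Ctsd, Ctsl) and 1 was lower (Ctsc), beside 63.5% of all genes (33.1% higher, 30.3% lower). On day 14, 3 were higher (Ctsa, Ctsl, Ctsz), 3 were lower (Ctsb, Ctsc, Ctsk) and 2 did not pass (Ctsd, Ctso), beside 68.6% of all genes (32.6% higher, 36.0% lower). On day 14 the 6 of 8 cathepsins called were close to that background, and the median Log2FC of the 8 on day 14 was -0.03, as was that of all genes tested. Only Ctsa also passed a Log2FC of 1 on day 14, as did 7.51% of all genes in the upward direction.

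**Figure D1:**
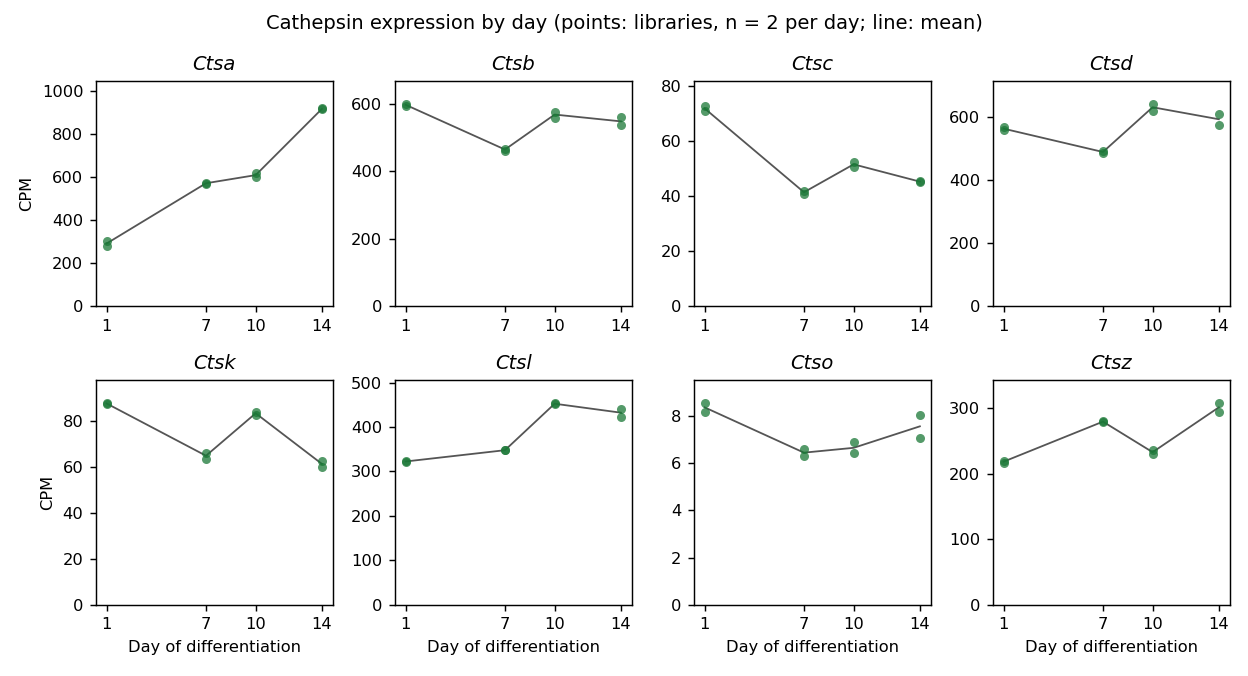
Expression of the 8 cathepsins that passed the filter, in CPM on a linear axis from 0, against the day of differentiation. Points are single libraries (2 per day) and lines join the means. Ctsa rises from 280 and 302 CPM on day 1 to 914 and 919 on day 14, whereas Ctsb, Ctsc, Ctsd and Ctsk dip on day 7 and are higher again on day 10.

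Ctsa (ENSMUSG00000017760, chr2:164674778-164682961, GRCm39, plus strand) encodes cathepsin A, also called protective protein, which trims peptide ends and holds the sialidase Neu1 and the β-galactosidase Glb1 in a stable lysosomal complex. It lay at 280 and 302 CPM on day 1, 568 and 574 on day 7, 619 and 598 on day 10, and 914 and 919 on day 14. The libraries of the 4 days did not overlap, and between days 1 and 14 that held for 87.1% of all genes tested. Its Log2FC against day 1 was 0.97 on day 7, 1.06 on day 10 and 1.65 on day 14 (SE 0.04 each), with adjusted p of 6.54e-18, 7.98e-19 and 3.19e-23. The rise came in 2 steps, since day 10 against day 7 did not pass (Log2FC 0.09, adjusted p = 0.039) and day 14 against day 10 did (0.59, 7.57e-13). The increase on day 14 ranked 452 of 12725 genes by Log2FC.

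Ctsa shares 1252 of its 5151 annotated exonic bases with Pltp and 649 with Neurl2, which lie on the opposite strand. Whether the authors counted reads by strand is not given in the sources used here, and without strand, reads from these bases cannot be told apart. Pltp, which encodes a phospholipid transfer protein, moved the same way as Ctsa, from a mean of 123 CPM on day 1 to 812 on day 14. In the sorted libraries, where transcripts were quantified separately, 10 of 16 Ctsa transcripts share no exonic base with Pltp. Their summed level was 20.9, 14.5 and 18.4 TMM-normalized CPM in the CD61low libraries and 44.1, 42.1 and 41.1 in the CD61high libraries. These transcripts hold a small part of the gene's counts, and their level was 2.36 times as high in CD61high cells, against 2.83 times for the whole gene. The 6 transcripts that share no base with either neighbour gave a ratio of 2.45. Of these, 5 are annotated as retained-intron transcripts and 1 has no defined coding sequence, so the ratio is not one of protein-coding Ctsa.

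Neu1, the sialidase that cathepsin A stabilizes, followed Ctsa to a higher level, from 58.1 and 56.5 CPM on day 1 to 107 and 118 on day 14 (Log2FC 0.96, adjusted p = 6.59e-16). Its highest values, 138 and 135 CPM, were on day 10. Glb1, the third member of the complex, lay at 72.8 and 74.0 CPM on day 1 and at 79.6 and 80.9 on day 14 and did not pass the test (Log2FC 0.13, adjusted p = 0.012).

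Ctsz (chr2:174267304-174280832, minus strand) encodes cathepsin Z, a carboxypeptidase that removes single residues from protein ends. Its libraries lay at 220 and 217 CPM on day 1, 279 and 280 on day 7, 230 and 235 on day 10, and 295 and 308 on day 14. Its level thus rose by day 7 (Log2FC 0.35, adjusted p = 2.91e-09), fell by day 10 (-0.26 against day 7, 8.30e-07) and rose again by day 14 (0.37 against day 10, 2.09e-09). It was the only 1 of the 8 that was lower on day 10 than on day 7. On day 14 it was 0.46 above day 1 (SE 0.04, adjusted p = 1.08e-11). It shares 1084 exonic bases with Nelfcd on the opposite strand, whose mean went the other way, from 72.6 to 57.5 CPM.

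Ctsl (chr13:64507151-64518704, minus strand) encodes cathepsin L, a broad endopeptidase. It lay at 322 and 323 CPM on day 1, at 348 in both libraries of day 7, at 454 and 451 on day 10, and at 423 and 441 on day 14. Its Log2FC against day 1 was 0.49 on day 10 (adjusted p = 2.63e-12) and 0.42 on day 14 (3.88e-11). The step by day 7 was small (0.11, adjusted p = 0.0084) and did not pass once any of the 4 libraries of these days was left out, with adjusted p from 0.044 to 0.062 while the Log2FC stayed at 0.11. Day 14 against day 10 did not pass (-0.07, adjusted p = 0.10), although the libraries of these days did not overlap. Ctsl shares 1742 exonic bases with Gm47123 on the opposite strand and 395 with Gm49230 on the same strand.

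Ctsk (chr3:95406178-95416732, plus strand), the collagen-digesting cathepsin, fell, recovered and fell again. It lay at 87.5 and 87.4 CPM on day 1, 63.5 and 66.0 on day 7, 82.5 and 83.8 on day 10, and 60.0 and 62.4 on day 14. Its Log2FC against day 1 was -0.43 on day 7 (SE 0.04, adjusted p = 4.86e-09), -0.07 on day 10 (0.16) and -0.51 on day 14 (SE 0.04, 1.20e-10). Between neighbouring days it rose by 0.36 from day 7 to day 10 (1.98e-07) and then decreased by 0.44 (5.18e-09). Neither day 14 against day 7 (-0.08, adjusted p = 0.13) nor day 10 against day 1 passed the test, although the libraries did not overlap in either case. No other annotated gene overlaps Ctsk.

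Ctsc (chr7:87927092-87960096, plus strand) encodes dipeptidyl peptidase 1, which activates serine proteases of immune cells, and it had the largest decrease of the 8. Its libraries lay at 71.0 and 72.8 CPM on day 1, 42.0 and 40.8 on day 7, 52.4 and 50.8 on day 10, and 45.4 and 45.2 on day 14. The Log2FC against day 1 was -0.78 on day 7 (SE 0.05, adjusted p = 2.57e-13), -0.47 on day 10 (4.31e-09) and -0.66 on day 14 (6.03e-12). From day 7 to day 10 it rose by 0.31 (7.89e-06). The decrease from day 10 to day 14 (-0.18, adjusted p = 0.0024) did not pass without day 10 replicate 1 (-0.16, 0.031), without day 14 replicate 2 (-0.18, 0.010), with edgeR on the recovered reads (-0.13, 0.029) or with TMM scaling of the CPM values (-0.13, 0.028).

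Ctsb (chr14:63358384-63383372, plus strand), cathepsin B, cuts proteins internally and from the end, and Ctsd (chr7:141929646-141941775, minus strand), cathepsin D, is the main aspartic protease of lysosomes. Ctsb lay at 594 and 600 CPM on day 1, 461 and 467 on day 7, 559 and 577 on day 10, and 536 and 560 on day 14. Ctsd lay at 558 and 568 CPM on day 1, 486 and 491 on day 7, 620 and 641 on day 10, and 575 and 610 on day 14. Both had their lowest libraries on day 7. For Ctsb the Log2FC on day 7 was -0.36 (adjusted p = 1.81e-09), followed by a rise of 0.29 to day 10 (1.57e-07). For Ctsd the decrease on day 7 was -0.20 (3.11e-05), followed by a rise of 0.37 (4.74e-09) that took it 0.16 above day 1 (0.00033). On day 14 the 2 genes were close to day 1. Ctsd did not pass (0.07, adjusted p = 0.073), but was called higher with TMM scaling (0.11, 0.0093) and without day 14 replicate 1 (0.12, 0.0064). From day 10 to day 14 Ctsd was called lower without day 14 replicate 2 (-0.13, 0.0035) and not with all libraries. On day 14 Ctsb was lower by a small margin (-0.12, 0.0032) that did not pass with TMM scaling (-0.09, 0.027), with edgeR on the recovered reads (-0.09, 0.030) or without day 14 replicate 1 (-0.09, 0.025), day 1 replicate 1 (-0.13, 0.020) or day 1 replicate 2 (-0.12, 0.037). Ctsb shares 1184 exonic bases with Fdft1 on the opposite strand, which went from a mean of 99.0 CPM on day 1 to 34.5 on day 14. Ctsd shares 808 exonic bases with Gm49369 on the same strand.

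Ctso (chr3:81839873-81867246, plus strand), a little-studied cysteine protease, was the lowest of the 8, with 8.18 and 8.56 CPM on day 1, 6.60 and 6.30 on day 7, 6.89 and 6.41 on day 10, and 8.04 and 7.09 on day 14. It was lower on day 7 (Log2FC -0.33, SE 0.10, adjusted p = 0.0066), which did not pass without any 1 of the 4 libraries of days 1 and 7 (adjusted p from 0.019 to 0.053, Log2FC from -0.36 to -0.30), with TMM scaling (-0.29, 0.015) or with edgeR on the recovered reads (-0.33, 0.015). On day 10 Ctso did not pass (-0.29, adjusted p = 0.014), but was called lower with edgeR on the recovered reads (-0.35, 0.0079) and with TMM scaling (-0.31, 0.0087). Ctsf and Ctsh, 2 further cysteine proteases, were near 0. Ctsf had 2 reads in all 8 differentiation libraries together, both from day 1 replicate 1, and none in the sort, where 3 reads of all 6 libraries would be 0.026 CPM. Ctsh had 7 reads in the differentiation libraries and 1 in the sorted libraries. Neither could be compared at this depth.

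**Figure D2:**
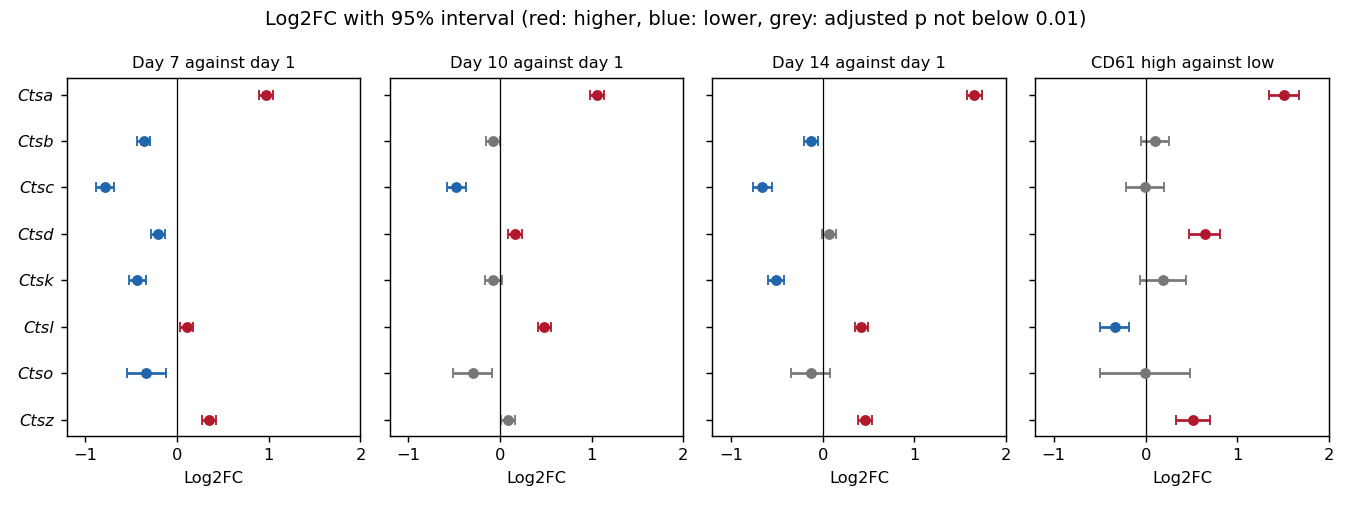
Log2FC (points) with the 95% interval (bars) of the 8 cathepsins on days 7, 10 and 14 against day 1 (limma) and in CD61high against CD61low cells (edgeR). Red marks genes called higher, blue genes called lower and grey genes with an adjusted p not below 0.01. Ctsa lies near or above 1 in all 4 panels, and Ctsl is above 0 on day 14 (0.42) and below 0 in the sort (-0.33).

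Around day 10, Ctsc and Ctsk passed the test above both neighbouring days, Ctsc without the call against day 14 under TMM scaling. From day 7 to day 10, 5 of the 8 rose (Ctsb, Ctsc, Ctsd, Ctsk, Ctsl) and 1 fell (Ctsz), where 48.7% of all genes tested were called, made up of 29.8% higher and 18.9% lower. From day 10 to day 14, 2 rose (Ctsa, Ctsz) and 2 fell (Ctsc, Ctsk), where 52.8% of all genes tested were called, made up of 22.9% higher and 30.0% lower. These steps share the day 10 libraries. The median Log2FC of the 8 was 0.30 from day 7 to day 10 and -0.06 from day 10 to day 14, beside 0.07 and -0.04 over all genes.

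In sum over the 8, reads on cathepsins rose with differentiation. The sums were 2140 and 2178 CPM on day 1, 2255 and 2273 on day 7, 2624 and 2643 on day 10, and 2856 and 2952 on day 14, with no overlap between days. That is a mean of 0.216% of all reads counted on day 1 and 0.290% on day 14. The share of Ctsa in this sum was 13.5% ± 0.53 (SD, n = 2) on day 1, 25.2% ± 0.044 on day 7, 23.1% ± 0.68 on day 10 and 31.6% ± 0.62 on day 14. The cathepsin with the most reads was Ctsb on day 1, Ctsa on day 7, Ctsd on day 10 and Ctsa on day 14. Without Ctsa, the other 7 summed to 1860 and 1876 CPM on day 1, 1687 and 1699 on day 7, 2005 and 2045 on day 10, and 1942 and 2033 on day 14. That sum was lowest on day 7, and its libraries on days 10 and 14 overlapped. A share of reads also depends on transcript length, so it is not a share of molecules.

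The second question was how the cathepsins differed between CD61high and CD61low cells. Counts were scaled with TMM factors and tested with edgeR's quasi-likelihood test. The filter asked for 5 normalized counts or more in each of the 6 libraries, and the same 8 cathepsins passed it. In CD61high cells 3 were higher (Ctsa, Ctsd, Ctsz), 1 was lower (Ctsl) and 4 did not pass (Ctsb, Ctsc, Ctsk, Ctso), in a comparison that called 35.4% of the 12077 genes tested. Of all genes 19.4% were called higher and 16.0% lower. The median Log2FC of the 8 was 0.15, beside 0.00 for all genes tested. Only Ctsa passed a Log2FC of 1 as well, as did 4.84% of all genes in that direction.

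**Figure D3:**
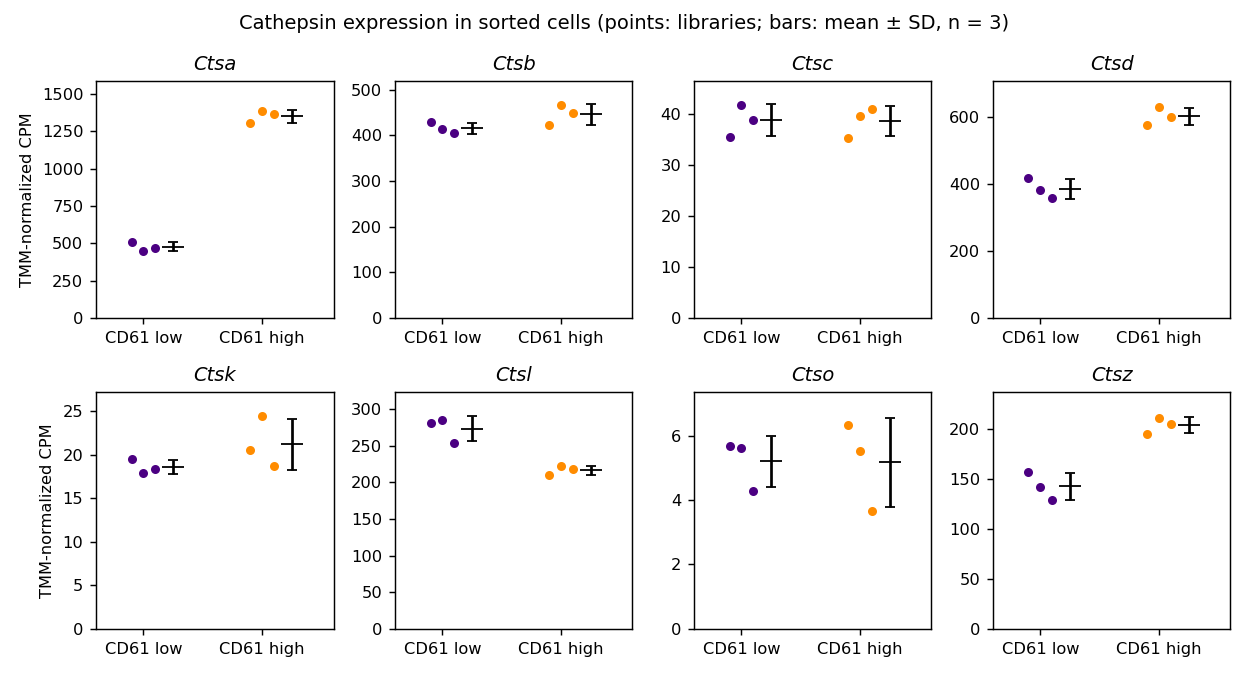
TMM-normalized CPM of the 8 cathepsins in CD61low and CD61high cells, on linear axes from 0. Points are the 3 libraries of each group, and the bars beside them show the mean ± SD. Ctsa, Ctsd and Ctsz are higher and Ctsl lower in all 3 CD61high libraries, and the groups overlap for Ctsb, Ctsc, Ctsk and Ctso.

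Ctsa lay at 510, 452 and 467 TMM-normalized CPM in the CD61low libraries and at 1301, 1383 and 1366 in the CD61high libraries. The groups were far apart, with a Log2FC of 1.50 (SE 0.07, adjusted p = 3.11e-07), rank 206 of 12077 genes. By transcript, Ctsa-202 held 90.0% ± 0.28 of the gene's counts in CD61low and 92.0% ± 0.38 in CD61high (SD, n = 3). Ctsa-202 is itself among the transcripts that share bases with Pltp. Pltp, on the opposite strand, again moved with it, from 612 to 2321. The partners of cathepsin A in the lysosomal complex were higher too. Neu1 lay at 99.7, 89.3 and 91.1 in CD61low and at 135, 150.5 and 128 in CD61high (Log2FC 0.56, adjusted p = 0.00027). Glb1 lay at 72.0, 71.3 and 65.4 in CD61low and at 136, 146 and 134 in CD61high (1.00, 2.59e-06).

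Ctsd lay at 417, 381 and 357 TMM-normalized CPM in CD61low and at 576, 628 and 598 in CD61high, with a Log2FC of 0.64 (SE 0.08, adjusted p = 7.60e-05). Ctsz lay at 157, 143 and 129 in CD61low and at 195, 211 and 206 in CD61high, with a Log2FC of 0.51 (SE 0.08, adjusted p = 0.00051). The libraries of the groups did not overlap for either gene, as held for 58.0% of all genes tested. When libraries were scaled by their size alone, the median Log2FC of all genes shifted to -0.29. Ctsa (1.20) and Ctsd (0.34, adjusted p = 0.0032) still passed under that scaling and Ctsz did not (0.21, 0.047).

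Ctsl lay at 281, 285 and 253 TMM-normalized CPM in CD61low and at 209, 222 and 217 in CD61high. The Log2FC was -0.33 (SE 0.07, adjusted p = 0.0030). This call is at the edge of the threshold. The adjusted p was 0.014 without CD61low replicate 1, 0.019 without CD61low replicate 2, 0.010 without CD61high replicate 1 and 0.015 without CD61high replicate 3. In the same 4 fits the Log2FC stayed between -0.34 and -0.31, and with scaling by library size alone it was -0.64. With the replicate number as a block the call was lost (-0.33, adjusted p = 0.010).

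Ctsk lay at 19.5, 17.9 and 18.4 TMM-normalized CPM in CD61low and at 20.5, 24.4 and 18.6 in CD61high. The groups overlapped, and the Log2FC of 0.19 had a 95% interval from -0.07 to 0.44 (adjusted p = 0.19), with a value of -0.11 when scaled by library size alone. Ctsb gave 0.10 (interval -0.05 to 0.25, adjusted p = 0.24), Ctsc -0.01 (-0.21 to 0.20, 0.96) and Ctso -0.01 (-0.50 to 0.48, 0.97). Scaled by library size alone, these became -0.20 (adjusted p = 0.030), -0.31 (0.016) and -0.31 (0.24), none of which passed. The widest of these intervals is that of Ctso, which had means of 5.21 and 5.17 in the 2 groups.

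TPM, the abundance of a transcript per 1000000 transcripts after correction for its length, allows the genes to be ranked against each other within the sort. In CD61low cells the order of mean TPM was Ctsa (442), Ctsl (391), Ctsd (368), Ctsb (267), Ctsz (241), Ctsc (32.7), Ctsk (27.1) and Ctso (3.48). In CD61high cells it was Ctsa (980), Ctsd (460), Ctsz (278), Ctsl (245), Ctsb (227), Ctsc (27.1), Ctsk (24.8) and Ctso (2.76). Ctsa thus stood first in both groups, and Ctsl went from rank 2 to rank 4. Summed over the 8, TPM was 1749 to 1809 in the CD61low libraries and 2209 to 2265 in the CD61high libraries. Without Ctsa the direction depended on the unit. The other 7 summed to 1330 ± 19.3 TPM in CD61low and 1265 ± 14.0 in CD61high (SD, n = 3), and to 1279 ± 70.0 and 1532 ± 66.4 TMM-normalized CPM. The share of Ctsa in the TPM sum of all 8 was 24.9% ± 1.38 in CD61low and 43.7% ± 0.17 in CD61high (SD, n = 3).

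Other genes that act on cathepsins were read from fixed lists. Among cathepsins outside the 10, 13 were in the tables, of which 8 were at 0 in every differentiation library and 11 in every sorted library. Only Ctsw passed the filter, in the differentiation experiment, and none did in the sort. Of 20 cystatins and other cathepsin inhibitors, 3 passed the filters in each experiment. Cst3, cystatin C, the main secreted inhibitor of cysteine cathepsins, lay at 300.6 CPM in both libraries of day 1, 234 and 247 on day 7, 247 and 254 on day 10, and 346 and 362 on day 14. Its Log2FC was -0.32 on day 7 (adjusted p = 4.20e-08) and 0.23 on day 14 (4.26e-06). In the sort it lay at 159, 141 and 127 in CD61low and at 288, 346 and 317 in CD61high (1.15, adjusted p = 7.54e-06). Cstb, the intracellular cystatin B, was higher on day 14 (0.27, 1.88e-06) and did not pass in the sort (-0.27, 0.075). Serpinb6a, an intracellular serine protease inhibitor, was lower on day 14 (-0.35, 2.05e-08).

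**Figure D4:**
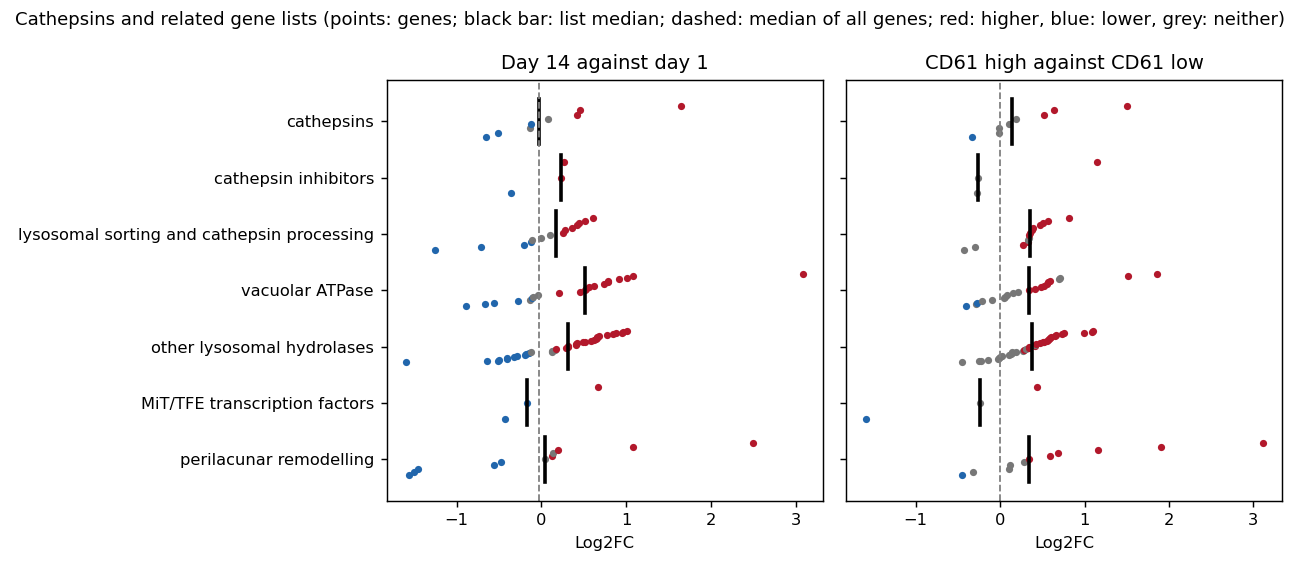
Log2FC of each gene tested, on day 14 against day 1 and in CD61high against CD61low cells, for the cathepsins and for 6 lists of related genes. Red points are genes called higher, blue points genes called lower and grey points neither; black bars are list medians and the dashed line is the median of all genes tested (-0.03 and 0.00). The cathepsin median lies at -0.03 and 0.15, and the medians of lysosomal sorting genes, vacuolar ATPase genes and other lysosomal hydrolases lie between 0.18 and 0.51.

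Of 14 genes for the sorting and processing of lysosomal enzymes, 7 were higher and 4 lower on day 14 than on day 1 (median Log2FC 0.18), beside 32.6% higher and 36.0% lower among all genes. In CD61high cells 10 were higher and none lower (0.35), beside 19.4% and 16.0%, but with libraries scaled by their size alone 1 was higher and 2 lower, so the sort values of this list are relative to the median gene under TMM. The same shares of all genes stand beside the day 14 and sort counts of the lists that follow. Lgmn, legumain, the protease that cuts several cathepsins into their mature chains, was higher in both, from 131 and 136 CPM on day 1 to 178 and 182 on day 14 (0.43, adjusted p = 2.74e-10) and from a mean of 103 in CD61low to 146 in CD61high (0.51, 0.00037). Of the mannose 6-phosphate receptors, M6pr was higher in both (0.25, 9.93e-06; 0.38, 0.00086), and Igf2r was lower on day 14 (-0.20, 0.00099) and did not pass in the sort (0.33, 0.068). The genes for the mannose 6-phosphate tag did not move together. Gnptab, whose product starts the tag, went from 38.4 ± 1.36 CPM on day 1 to 15.5 ± 0.93 on day 14 (SD, n = 2; Log2FC -1.25, adjusted p = 1.61e-14), and Nagpa, the uncovering enzyme that finishes it, from 34.9 ± 0.29 to 20.9 ± 0.45 (-0.72, 3.66e-10). Gnptg, a further subunit of the phosphotransferase encoded by Gnptab, rose from 25.4 ± 2.11 to 34.7 ± 0.11 CPM (0.44, 5.60e-07). In the sort Gnptg (0.48, 0.0017) and Nagpa (0.57, 0.00057) were higher in CD61high cells, and Gnptab, with means of 22.1 in CD61low and 16.5 in CD61high, did not pass (-0.43, 0.011). The sorting receptor Sort1 was higher on day 14 (0.61) and in CD61high cells (0.82), and Lamp2, a lysosomal membrane protein, was higher on day 14 (0.52).

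Of 25 vacuolar ATPase genes, 21 were tested, of which 13 were higher and 5 lower on day 14 (median 0.51) and 9 higher and 2 lower in CD61high cells (0.35). Scaled by library size alone, the sort gave 2 higher and 5 lower, so these values too are relative to the median gene under TMM. Atp6v0a4, a subunit of the membrane sector, rose from 1.06 ± 0.32 to 16.3 ± 0.18 CPM between days 1 and 14 (SD, n = 2; Log2FC 3.08, adjusted p = 1.49e-18) and from a mean of 4.46 to 12.8 in the sort (1.51, 0.00010). Atp6v1g1 rose from 76.5 ± 5.19 to 163 ± 5.19 CPM (1.08, 1.70e-17), with 0.59 in the sort. Tcirg1, the a3 subunit that osteoclasts use to acidify the resorption pit, fell from 172 ± 2.18 to 117 ± 1.78 CPM (-0.55, 6.19e-13), as did Atp6v0a2 (-0.67, 2.19e-13). In the sort Tcirg1 was higher in CD61high cells, with means of 194 and 246 (0.35, 0.0035). There Atp6v1c1 (-0.41, 0.0012) and Atp6v1a (-0.28, 0.0050) were lower in CD61high cells. Over the alternatives for the sort, the number of these genes called lower ran from 0 to 5, and that called higher from 2 to 9.

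The day 10 rise seen for 5 cathepsins was also seen in these lists. From day 7 to day 10, 12 of 14 sorting genes and 19 of 21 vacuolar ATPase genes were called higher and none lower, beside 29.8% higher and 18.9% lower among all genes, with medians of 0.38 and 0.47 beside 0.07 for all genes. From day 10 to day 14, 11 of the 14 and 14 of the 21 were called lower, beside 30.0% of all genes. Over 14 alternative settings, TMM scaling among them, the counts at the first step ran from 10 to 12 and from 17 to 19. The macrophage marker Cd68 also stood higher, at 1.68 and 1.69 CPM on day 7 and 4.54 and 4.73 on day 10, and its part in these values was not tested. The labels give no collection batch, so day and batch cannot be told apart.

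Of 36 other lysosomal hydrolases, all tested, 21 were higher and 11 lower on day 14 (median 0.31), and 20 were higher and none lower in CD61high cells (0.38). Tpp1, a tripeptidyl peptidase, rose from 113 ± 5.19 to 229 ± 1.57 CPM by day 14 (SD, n = 2; Log2FC 1.01, adjusted p = 3.46e-18). Gusb, β-glucuronidase, fell from 157 ± 1.36 to 51.4 ± 1.93 CPM (-1.59, 9.70e-22), and Sgsh, a sulfatase of heparan sulfate, fell as well (-0.64, 9.46e-08). In the sort Ppt2, a thioesterase (1.10, 2.06e-05), and Galns, a sulfatase of keratan sulfate (1.09, 1.14e-06), had the largest increases among hydrolases. Scaled by library size alone, the sort gave 10 hydrolases higher and 6 lower.

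Among the MiT/TFE factors, Tfeb lay at 15.3 and 15.1 CPM on day 1, 25.4 and 24.3 on day 7, 23.3 in both libraries of day 10, and 24.7 and 24.6 on day 14 (Log2FC 0.67 on day 14, adjusted p = 2.68e-09). In the sort it lay at 24.3, 25.6 and 23.2 in CD61low and at 30.5, 36.3 and 32.2 in CD61high (0.44, 0.0032). Tfe3, with more reads than Tfeb in all groups, was slightly lower on day 14 (-0.17, 0.0022) and did not pass in the sort (-0.24, 0.012). Mitf, at 1.16 to 2.04 CPM in the differentiation libraries, was lower on day 14 (-0.43, 0.0058) and lower in CD61high cells, with 3.11, 3.52 and 3.03 in CD61low and 1.29, 1.15 and 0.765 in CD61high (-1.58, 0.00049). Over the 14 alternative settings, the number of these factors called lower on day 14 ran from 0 to 2, and was 2 in 6 settings. The day 14 calls of Tfe3 and Mitf are thus near the threshold. The sort values of these factors are, as for the lists above, relative to the median gene under TMM. Values scaled by library size alone are not given here, so the sort calls are stated for TMM scaling only. Activity of these factors is set largely by their place in the cell, which RNA does not show.

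Of 15 perilacunar remodelling genes other than Ctsk, 11 were tested, with 4 higher and 5 lower on day 14 and 6 higher and 1 lower in CD61high cells. These sort counts, too, are relative to the median gene under TMM, and counts scaled by library size alone are not given here. Mmp13, the collagenase of perilacunar remodelling, lay at 91.0 and 97.4 CPM on day 1, 6.15 and 6.20 on day 7, 11.7 and 11.5 on day 10, and 33.5 and 31.7 on day 14 (Log2FC -1.50 on day 14, adjusted p = 2.06e-16). In the sort it lay at 3.64, 2.86 and 3.81 in CD61low and at 30.0, 27.8 and 31.2 in CD61high (3.11, 2.03e-07). Mmp14, the membrane-bound collagenase, was lower on day 14 (-0.47, 6.76e-12) and higher in CD61high cells (0.68, 2.25e-05). Mmp2, a gelatinase, fell from 1108 ± 4.02 to 375 ± 2.82 CPM by day 14 (SD, n = 2) and was higher in CD61high cells, with means of 172 and 385 (1.16, 4.73e-07). Pth1r, the receptor through which parathyroid hormone acts on osteocytes, rose from 204 ± 1.13 to 1157 ± 27.3 CPM (2.50, 2.70e-27) and was higher in CD61high cells (1.90, 2.59e-07), and Tgfbr2 was lower there (-0.46, 0.00046). Acp5, the acid phosphatase TRAP, was at or below 0.207 CPM in every library and was not tested. With day 14 set against day 1 alone, Ctsk was thus lower, as were Mmp13, Mmp14 and Mmp2. The paths between these days differed. From day 10 to day 14 Mmp13 rose (1.41, 3.73e-15), while Ctsk (-0.44) and Mmp14 (-0.59, 2.42e-13) fell. In the sort, where Mmp13, Mmp14 and Mmp2 were higher in CD61high cells, Ctsk did not pass.

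The genes whose pattern lay nearest to Ctsk were found as the root-mean-square difference over 4 Log2FC values, those of days 7, 10 and 14 against day 1 and of the sort, among 9858 genes. They were Tia1 (0.057), Rbm4b (0.059), Osbpl7 (0.069), Kif24 (0.069) and Cdan1 (0.075). Of the other cathepsins the nearest was Ctsb (0.20, rank 415), followed by Ctso (0.24) and Ctsc (0.29), and the farthest was Ctsa (1.55, rank 9397). The 3 Log2FC values of the time course share the day 1 libraries, so these distances are a description.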

How the data were processed

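The authors aligned the time-course reads with STAR and counted genes with HTSeq, and they deposited CPM values of 39179 genes; the annotation and the use of strand are not given in the sources used here. Read depth was recovered from the step size of the CPM values, of which 100.0% came out as whole reads (tolerance 0.01 reads). For the sort, the authors deposited estimated counts per transcript from Salmon (GRCm39), and TPM values from the same deposited files were used to rank genes. Of 116747 transcripts, 115556 matched GENCODE M39 (99.3% to 99.43% of counts). Estimated counts were summed by gene and rounded.

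All 8 differentiation libraries were fitted together with limma 3.58.1 (trend) on log2(CPM + 1), and the 6 sorted libraries with edgeR 4.0.16 (TMM over all genes, before the filter). Benjamini-Hochberg adjustment was over all genes tested, with a threshold of 0.01. Both procedures were also run on simulated data, whose outcome is not given here and lends no support to the calls. The 2 tables were normalized separately and tested apart. Gene models and promoter sequence came from GENCODE M39 and GRCm39.

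The cathepsins and gene lists were chosen with earlier results of these data known. Beside the cathepsins, fixed partners were named, and from each list up to 2 genes with the largest increase and up to 2 with the largest decrease in each of 2 comparisons (adjusted p below 0.01, mean of at least 5 CPM). Itgb3 was added as a check of the sort, and Pltp, Neurl2, Fdft1, Nelfcd, Gm49369, Gm47123 and Gm49230 for sharing exonic bases. Alternatives were DESeq2 1.42.0, other scalings, filters, pseudocounts and thresholds, a transcript length offset, a replicate block and leaving out each library. Intervals and limits for a count of 0 cover counting error only where they are given in reads.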

Additional observations from a re-analysis of the deposited data

How the results depend on the processing

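Over the alternatives run, no called cathepsin changed sign. With a Log2FC above 1 or below -1 also required, the counts of cathepsins higher and lower were 0 and 0 on day 7, 1 and 0 on day 10 and 1 and 0 on day 14 (against day 1), 0 and 0 from day 7 to day 10, 0 and 0 from day 10 to day 14, and 1 and 0 in CD61high cells. Cathepsins lower on day 10 than on day 1 numbered 2 in place of 1 with edgeR on the recovered reads, with TMM scaling of the CPM values and at an adjusted p below 0.05. The added gene is Ctso. Cathepsins lower on day 14 than on day 10 numbered 1 in place of 2 with edgeR on the recovered reads and with TMM scaling, and 1 to 2 with a library left out (1 without day 10 replicate 1). In the sort, cathepsins lower in CD61high cells numbered 0 in place of 1 with the replicate block and 0 to 1 with a library left out; the gene is Ctsl. The cause of these shifts was not tested.

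Both sorted groups came from the same 3 groups of cells, so the design may pair the sorted libraries. Whether the replicate numbers follow those groups of cells is not stated in the labels. Correlations of deviations between same-numbered sorted libraries were -0.358, 0.325 and -0.0759, too few and too mixed to decide this. In the differentiation experiment they were at most 0.087. The block changed no other count of cathepsins by over 1.5 times. Ctsf and Ctsh had too few reads to be compared between groups. The calls of Ctsb on day 14, of Ctsc from day 10 to day 14 and of Ctso on day 7 were near the threshold and were lost in some fits with a library left out, with Log2FC values close to those of all libraries. Without the filter on low values, the calls of Ctsl and Ctso on day 7 and of Ctsb on day 14 were also lost, with adjusted p of 0.022, 0.041 and 0.019.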

Other observations

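The transcripts behind the other cathepsins in the sorted libraries were read as a description. Ctsk had a single counted transcript, Ctsk-201, which held 100% of its counts. Ctsb-201, the protein-coding transcript, held 93.2% ± 0.66 of Ctsb counts in CD61low and 93.4% ± 1.25 in CD61high cells (SD, n = 3), and the rest was nearly all the retained-intron transcript Ctsb-202. Per length, Ctsb-202 was at 97.4 ± 9.21 and 81.8 ± 15.0 TPM beside 169 ± 1.69 and 146 ± 3.24 for Ctsb-201. Ctsl-201 held 88.9% ± 2.76 and 90.1% ± 1.69 of Ctsl counts. The split of Ctsd between Ctsd-201 and Ctsd-202 was not stable, since Ctsd-201 took 0 to 12.3% of the counts among the CD61high libraries.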
